A study of Mus musculus with 2 samples.

Results

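The genes examined here were 47 genes of homologous recombination, the Fanconi anemia pathway and the DNA damage checkpoint, with a few mismatch, base-excision and post-replication repair genes beside them. They were taken by symbol from the deposited table, and all 47 were found among its 14197 genes. The table compares 2 RNA-sequencing libraries of 4T1 cells, a murine mammary carcinoma line labelled as wild type. One library came from cells treated with 20 μM astragalin (AS), a plant flavonoid, for 24 h, and the other from cells given the vehicle. With 1 library per condition there was no replicate check and no test, so every difference below is one between these 2 libraries, and another difference between the 2 dishes cannot be told apart from AS.

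The values are RPKM, read counts divided by exon length and by library size, as made by the authors. Whole reads could be worked back from them for 14173 genes, the 47 included. With the few others estimated, they summed to 44840551 (AS) and 50746858 (vehicle). Log2 fold changes (log2 ratios) are AS over vehicle after 0.1 RPKM was added on both sides, so the ratio of a scarce gene comes out too small. Beside them stand 95% Clopper-Pearson intervals of the reads alone, which cover counting error only. For the whole table the median ratio was 0.07 on this scale. All 7 mammary epithelial markers were present at 13.4 to 902 RPKM, and their summed level was 1687 RPKM after AS against 2101 after the vehicle. The keratins Krt8 (-0.54), Krt7 (-0.52) and Krt18 (-0.35) were lower on the log2 scale, while Cdh1 (0.17) and Cldn4 (0.42) were higher. None of 4 endothelial markers was in the table, while 3 of 5 immune markers (at most 2.47 RPKM) and 2 of 4 fibroblast markers (at most 4.24 RPKM) were.

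Homologous recombination repairs a broken chromosome by copying the sister chromatid. The ends are first cut back to single strands, and BRCA1 and BRCA2 with their partners then prepare these strands for pairing with the matching sequence. The Fanconi proteins unhook crosslinks between the strands, with a ubiquitin placed on the FANCD2-FANCI pair as the central step. ATR with CHK1 watches over replication forks, and ATM with CHK2 answers to breaks. Many of these genes are transcribed at the G1/S border and in S phase, when a sister chromatid is being made.

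To show the promoters of genes with the largest differences in either direction, those of 4 of the 5 genes lowest with AS and the 2 highest are printed from RefSeq (GRCm38.p6), each from 250 bases before the annotated start to 30 bases after it. They are chr5:114130185-114130464 (plus strand) for Ung, chr11:86201164-86201443 (minus) for Brip1, chr4:116123661-116123940 (minus) for Rad54l, chr4:126556730-126557009 (plus) for Clspn, chr7:51862238-51862517 (minus) for Fancf and chr11:9011162-9011441 (minus) for Hus1. Capitals mark CCAAT boxes (CCAAT, or ATTGG on the other strand) and E2F words (TTTCCCGC, TTTCGCGC, TTTGCCGC or TTTGGCGC, on either strand). No printed match overlapped another.
Ung: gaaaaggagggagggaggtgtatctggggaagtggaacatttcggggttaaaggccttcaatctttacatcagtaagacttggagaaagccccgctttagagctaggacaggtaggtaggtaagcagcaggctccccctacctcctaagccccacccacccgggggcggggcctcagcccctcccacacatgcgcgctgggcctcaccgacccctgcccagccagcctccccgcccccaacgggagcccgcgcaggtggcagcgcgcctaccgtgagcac
Brip1: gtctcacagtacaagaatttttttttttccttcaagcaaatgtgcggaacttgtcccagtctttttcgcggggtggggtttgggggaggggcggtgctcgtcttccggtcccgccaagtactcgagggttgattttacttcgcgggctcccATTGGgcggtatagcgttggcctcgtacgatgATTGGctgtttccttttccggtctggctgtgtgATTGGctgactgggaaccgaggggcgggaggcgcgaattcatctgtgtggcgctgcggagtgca
Rad54l: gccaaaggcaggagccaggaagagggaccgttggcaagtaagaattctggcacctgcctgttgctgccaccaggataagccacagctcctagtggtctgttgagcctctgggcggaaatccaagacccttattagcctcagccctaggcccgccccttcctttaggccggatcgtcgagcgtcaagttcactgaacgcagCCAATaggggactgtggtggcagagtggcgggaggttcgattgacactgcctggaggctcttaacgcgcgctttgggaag
Clspn: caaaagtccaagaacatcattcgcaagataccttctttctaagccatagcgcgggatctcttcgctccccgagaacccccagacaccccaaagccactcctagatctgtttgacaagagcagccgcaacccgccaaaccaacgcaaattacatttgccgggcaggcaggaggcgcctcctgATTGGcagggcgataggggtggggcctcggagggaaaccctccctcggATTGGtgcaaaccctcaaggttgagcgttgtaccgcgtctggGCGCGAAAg
Fancf: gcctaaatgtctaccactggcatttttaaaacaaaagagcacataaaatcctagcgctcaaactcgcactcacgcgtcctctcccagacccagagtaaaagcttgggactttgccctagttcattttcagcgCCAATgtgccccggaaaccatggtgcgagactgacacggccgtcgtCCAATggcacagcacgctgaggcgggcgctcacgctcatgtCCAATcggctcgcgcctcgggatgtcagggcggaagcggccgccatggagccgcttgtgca
Hus1: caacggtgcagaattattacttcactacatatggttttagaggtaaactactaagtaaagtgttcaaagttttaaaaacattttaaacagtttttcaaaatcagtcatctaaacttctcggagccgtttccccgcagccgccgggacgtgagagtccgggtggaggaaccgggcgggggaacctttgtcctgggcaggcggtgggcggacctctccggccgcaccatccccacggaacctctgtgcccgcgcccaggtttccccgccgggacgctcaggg

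Brip1 and Fancf, which lay at opposite ends of the fold changes, each held 3 CCAAT boxes, and Ung and Hus1 held none. Only Clspn among these 6 held an E2F word, starting at base 22 after the annotated start. In windows of 300 bases (250 before the start, 50 after), available for 36 of the 47 genes, an E2F word was found for 8 genes (22.2%). The share was 4.91% of the 9680 genes of the table with such a window and 2.6% of all 27025 genes with a window. The 8 genes were Bard1, Brca2, Chek2, Clspn, Fancg, Msh6, Rad51c and Topbp1. Their log2 fold changes ran from -0.53 to 0.09 with a median of -0.11, and that of the genes without the word was -0.12. A CCAAT box was found for 21 of the 36 genes (58.3%), against 43.1% of the genes of the table and 37.4% of all windows. The median log2 fold change was -0.27 with the box and -0.08 without it. The word TTTGAA of the cell cycle homology region was found for 3 of the 36 genes (8.33%). The share was 14.5% of the genes of the table and 20.2% of all 27025 genes. With this word the median log2 ratio of the 3 genes was 0.22, against -0.14 without it. These are matches of letters and not shown binding sites.

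As a set, the 47 genes were slightly lower in the AS library. Of them, 33 had a log2 fold change below 0 (70.2%), against 39.1% of all genes, and 37 lay below the median of all genes (78.7%), against 50%. The median log2 fold change of the 47 genes was -0.14, and the middle values ran from -0.34 to 0.04. Few differences were large. At a threshold of 1.5-fold on that scale, 4 genes were lower (8.51%), against 2.01% of all genes, and 0 were higher, against 3.56%. These 4 were Ung, Exo1, Brip1 and Rad54l. The count was 0 when 1 RPKM was added in place of 0.1. With TMM scaling, which moved the median of all genes to 0.00029, 5 of the 47 genes were lower and 0 higher, and the split over all genes turned from 286 lower and 505 higher to 473 lower and 499 higher. No gene of the 47 passed 2-fold, where 0.31% of all genes were lower and 0.662% higher, although with TMM scaling Ung did (-1.06). The counting interval lay wholly below 0 for 25 of the 47 genes (53.2%), against 19.8% of all genes, and wholly above 0 for 5 (10.6%), against 37.6%. For the other 17 genes the interval covered 0. These intervals rest on library size alone, and their counts were not repeated with TMM scaling. Summed over the 47 genes, 99376 reads with AS and 128924 with the vehicle were counted, or 2213 and 2537 CPM (counts scaled to the size of the library). In a bulk library, fewer cells in S phase and less mRNA per cell cannot be told apart.

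**Figure D1:**
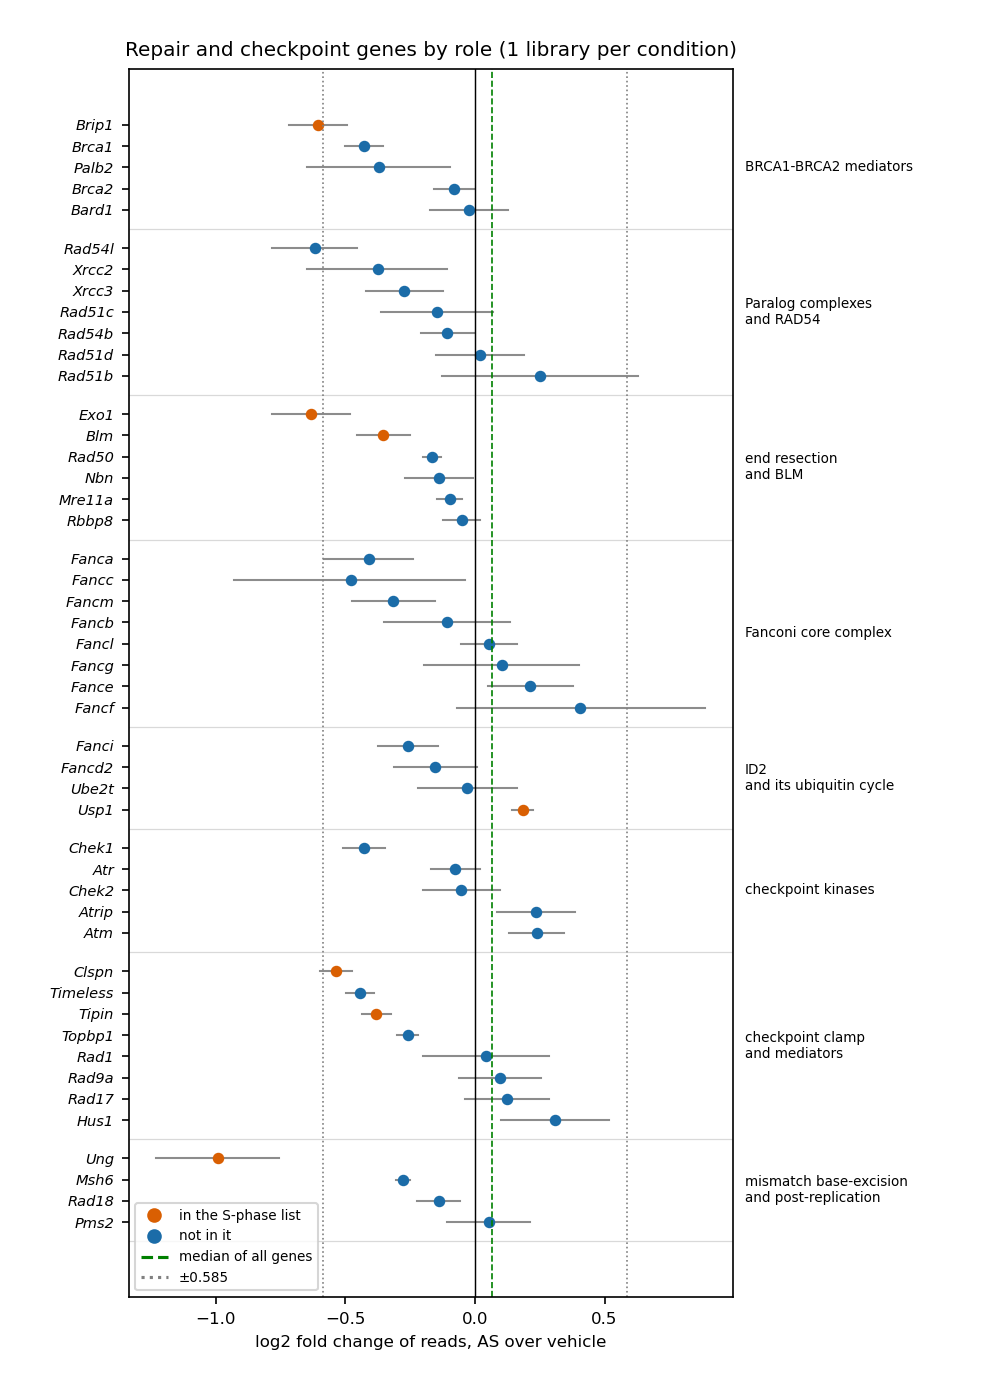
Log2 fold change of the reads (AS over vehicle, x axis) of each of the 47 genes, grouped by role, with 95% counting intervals as bars. Most points lie left of the dashed line at the median of all genes (0.07), Ung lies farthest left, and Fancf farthest right with a wide interval.

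The mediators of recombination were all on the lower side. Brip1, which encodes a helicase partner of BRCA1 (chromosome 11, 86058138 to 86201193, minus strand, GENCODE M21 on GRCm38), had 3.15 RPKM after AS against 4.80 after the vehicle (1055 and 1817 reads). Its log2 fold change was -0.59, with an interval from -0.72 to -0.50. Brca1, which works in end processing and later steps of recombination, had 6.26 and 8.42 RPKM (2399 and 3653 reads), or a log2 ratio of -0.42 (-0.50 to -0.35). Its obligate partner Bard1 had 2.66 and 2.71 RPKM, and its interval covered 0 (-0.18 to 0.13). Palb2, which bridges BRCA1 and BRCA2, was scarce, at 0.561 and 0.726 RPKM, and the interval of its log2 ratio of -0.32 is wide, from -0.65 to -0.10. Brca2, a mediator that acts on the resected strands, had 4.22 and 4.47 RPKM, and at -0.08 it was close to equal. The median log2 fold change of these 5 genes was -0.32, which is the value of Palb2. It ran from -0.15 with 1 RPKM added to -0.45 with upper-quartile scaling.

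Among Xrcc2, Xrcc3, Rad51b, Rad51c and Rad51d, subunits of complexes that assist recombination, the values spread on both sides. Xrcc2 had 0.820 RPKM after AS against 1.06 after the vehicle, or a log2 ratio of -0.34 (-0.65 to -0.11). Xrcc3 had 5.30 and 6.40 RPKM, or a log2 ratio of -0.27 (-0.42 to -0.13). Rad51c, a subunit common to both complexes, had 1.61 and 1.78 RPKM. Its interval covered 0, as did those of Rad51d (3.24 and 3.20 RPKM) and Rad51b (0.729 and 0.613 RPKM), which rests on 123 and 117 reads. Rad51d turned below 0 with TMM scaling. Rad54l, a motor protein of strand invasion (chromosome 4, 116094264 to 116123690, minus strand), differed more than its relative Rad54b. It had 1.40 RPKM after AS against 2.15 after the vehicle (485 and 843 reads), and its log2 fold change of -0.59 (-0.78 to -0.46) lay at the threshold itself. Rad54b had 5.56 and 5.99 RPKM, or a log2 ratio of -0.11. The exons of Rad54b share 35.8% of their bases with Fsbp on the same strand, which had a log2 fold change of 0.16 (-0.04 to 0.38), and the part of Fsbp in the value of Rad54b was not tested. The exons of Rad54l share 15.4% with Lrrc41 on the opposite strand, which had a log2 fold change of -0.18. How the authors counted such reads is not given in the sources used here. The median of these 7 genes was -0.14, between -0.23 and -0.09 over the alternative settings.

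The genes of end resection were all lower, by very unequal amounts. Exo1, the nuclease of long-range resection (chromosome 1, 175880581 to 175913489, plus strand), had 1.51 RPKM after AS against 2.34 after the vehicle (571 and 1001 reads), or a log2 ratio of -0.60 (-0.78 to -0.48). Blm, a helicase of the same step, had 3.29 and 4.21 RPKM, or a log2 ratio of -0.34 (-0.46 to -0.25). The complex that first binds the broken end was nearly level by comparison. Rad50 had 49.3 and 55.4 RPKM (-0.17), Mre11a 23.7 and 25.3 RPKM (-0.10) and Nbn 7.64 and 8.41 RPKM (-0.14). Rbbp8, the gene of CtIP, which starts resection together with that complex, had 5.42 and 5.62 RPKM and an interval that covered 0 (-0.12 to 0.02). The median of these 6 genes was -0.15, between -0.23 and -0.14 over the alternative settings.

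Of the 8 genes of the Fanconi core complex, the ubiquitin ligase of the pathway, 4 lay below 0, where 39.1% of all genes lay. The other 4 lay above 0, of which Fancl turned below 0 with TMM scaling. Below the median of all genes lay 5 of the 8 (62.5%), against 50%. Fanca, the gene most often mutated in Fanconi anemia, had 1.19 RPKM after AS against 1.59 after the vehicle (470 and 707 reads), or a log2 ratio of -0.38 (-0.58 to -0.24). Fancm, the translocase that brings the complex to DNA, had 1.16 and 1.44 RPKM, or a log2 ratio of -0.29 (-0.48 to -0.15). Fancc was the scarcest of the 47 genes, at 0.189 and 0.264 RPKM from 71 and 112 reads, and its value of -0.33 is therefore imprecise. On the other side, Fance had 4.35 and 3.75 RPKM, or a log2 ratio of 0.21 (0.05 to 0.38). Fancf had the highest log2 fold change of the 47 genes, 0.37, but it rests on 82 and 70 reads (1.08 and 0.815 RPKM), and its interval from -0.07 to 0.89 covers 0. Fancl, which carries the ligase activity, had 8.90 and 8.58 RPKM, Fancg had 1.09 and 1.01, and Fancb had 1.95 and 2.10, each with an interval that covered 0. On the opposite strand, exons of other genes cover 10.5% of the exon bases of Fanca (Zfp276, log2 ratio -0.0047), 13.7% of those of Fancl (Vrk2, 0.06), 14.96% of those of Fancf (Gas2, -0.15) and 16.4% of those of Fancc (Gm16133). The median of the core genes was -0.03, and it ran from -0.01 with 1 RPKM added to -0.11 with upper-quartile scaling.

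Of the target of the ligase and the enzymes around it, 3 of 4 genes lay below 0, where 39.1% of all genes lay. Usp1 lay above it. Fanci had 4.11 RPKM after AS against 4.91 after the vehicle, or a log2 ratio of -0.25 (-0.37 to -0.14). Its partner Fancd2 had 1.63 and 1.81 RPKM (-0.14), and its interval just covered 0 (-0.31 to 0.01). Ube2t, the E2 enzyme that hands over the ubiquitin, was level at 1.96 and 2.00 RPKM. Usp1, the protease that takes the ubiquitin off again, was one of the 5 genes (10.6%) whose whole interval lay above 0, against 37.6% of all genes. It had 61.3 RPKM after AS against 53.9 after the vehicle (10275 and 10235 reads), or a log2 ratio of 0.18 (0.14 to 0.22). Of all genes, 68.8% had a lower value, and with TMM scaling the log2 ratio of Usp1 was 0.12. Wdr48, which encodes the activating subunit of USP1 and was chosen after its value was seen, had 7.91 and 7.29 RPKM, or a log2 ratio of 0.12 (0.05 to 0.19). The interval of Wdr48 holds the median of all genes, 0.07. The median of the 4 genes of this cycle was -0.09, between -0.17 and -0.06 over the alternative settings. On the opposite strand, Polg covers 16.0% of the exon bases of Fanci and had a log2 ratio of 0.02.

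The checkpoint kinases differed from each other. Chek1, the effector kinase of ATR (chromosome 9, 36708482 to 36727065, minus strand), had 9.71 RPKM after AS against 13.1 after the vehicle (2021 and 3075 reads), or a log2 ratio of -0.42 (-0.51 to -0.35). Chek2, the effector of ATM, had 5.10 and 5.30 RPKM and an interval over 0 (-0.20 to 0.09). The kinases above them differed in the same sense. Atr had 1.54 and 1.62 RPKM, with an interval that covered 0 (-0.17 to 0.02), and Atm was higher with AS, at 3.17 and 2.69 RPKM, or a log2 ratio of 0.23 (0.13 to 0.34). Atrip, the partner through which ATR finds single strands, had 2.32 and 1.97 RPKM, or a log2 ratio of 0.23 (0.09 to 0.39). However, 16.0% of the exon bases of Atrip are shared with Trex1 on the same strand, which had a log2 fold change of 0.48, and the part of Trex1 in the value of Atrip was not tested. The median of the 5 genes was -0.05, between -0.13 and -0.04 over the alternative settings.

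Of the 8 genes of the checkpoint clamp and the mediators, 4 lay below 0, where 39.1% of all genes lay, and 4 above. Below the median of all genes lay 5 of the 8 (62.5%), against 50%. Clspn, the adaptor through which ATR reaches CHK1 (chromosome 4, 126556935 to 126593903, plus strand), had 11.1 RPKM after AS against 16.0 after the vehicle (3568 and 5855 reads), or a log2 ratio of -0.53 (-0.60 to -0.48). Timeless and Tipin, which form the fork protection complex, had 16.1 and 21.9 RPKM (-0.44, interval -0.50 to -0.39) and 49.1 and 63.9 RPKM (-0.38, interval -0.44 to -0.32). Topbp1, the activator of ATR, had 16.3 and 19.6 RPKM, or a log2 ratio of -0.26 (-0.30 to -0.22). The subunits of the clamp that marks the damaged site and its loader lay above 0, although Rad1 turned below 0 with TMM scaling. Rad9a had 6.04 and 5.66 RPKM, Rad1 had 0.812 and 0.790, and the loader Rad17 had 1.69 and 1.55, each with an interval that covered 0. Their log2 ratios of 0.09, 0.04 and 0.12 were close to the median of all genes, 0.07. Hus1, the third clamp subunit, was higher, at 1.36 and 1.10 RPKM from 394 and 360 reads, or a log2 ratio of 0.29 (0.10 to 0.52). The median of the 8 genes was -0.11, and it ran from -0.26 to -0.11 over the 9 alternative settings.

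Of the remaining genes, Ung had the lowest log2 fold change of the 47. It encodes the glycosylase that removes uracil from DNA (chromosome 5, 114130386 to 114139323, plus strand). Its level was 0.867 RPKM after AS against 1.72 after the vehicle (213 and 479 reads), or a log2 ratio of -0.91 and of -0.99 from the reads alone (-1.23 to -0.75). Only 0.416% of all genes had a lower value. Ung alone had an interval wholly beyond 1.5-fold. Msh6, a subunit that recognises mismatches, had the highest level of the 47 genes. It had 87.2 RPKM after AS against 106 after the vehicle (17020 and 23353 reads), or a log2 ratio of -0.28 (-0.31 to -0.25). Rad18, the ligase that marks PCNA at stalled forks, had 8.17 and 9.01 RPKM (-0.14, interval -0.22 to -0.06). Pms2, an endonuclease of mismatch repair, had 1.71 and 1.65 RPKM and an interval over 0, and it turned below 0 with TMM scaling.

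The 47 genes covered a wide range of levels, and the order differed between the libraries in several places. Msh6, Tipin, Rad50 and Usp1 were the 4 highest in the vehicle library, and Usp1, Rad50 and Tipin in that order followed Msh6 in the AS library. Counted from the highest level, Ung was at place 34 with the vehicle and 42 with AS, Rad54l at 28 and 36, and Exo1 at 27 and 35, while Rad17 was at 38 and 31. The median level was 3.17 RPKM after AS and 3.20 after the vehicle, against 5.10 and 4.79 over all genes. The scarcest genes, Fancc, Rad51b, Palb2, Rad1 and Fancf, had fewer than 1 RPKM with the vehicle, and Fancf, Fancc and Rad51b had the widest counting intervals of the 47.

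**Figure D2:**
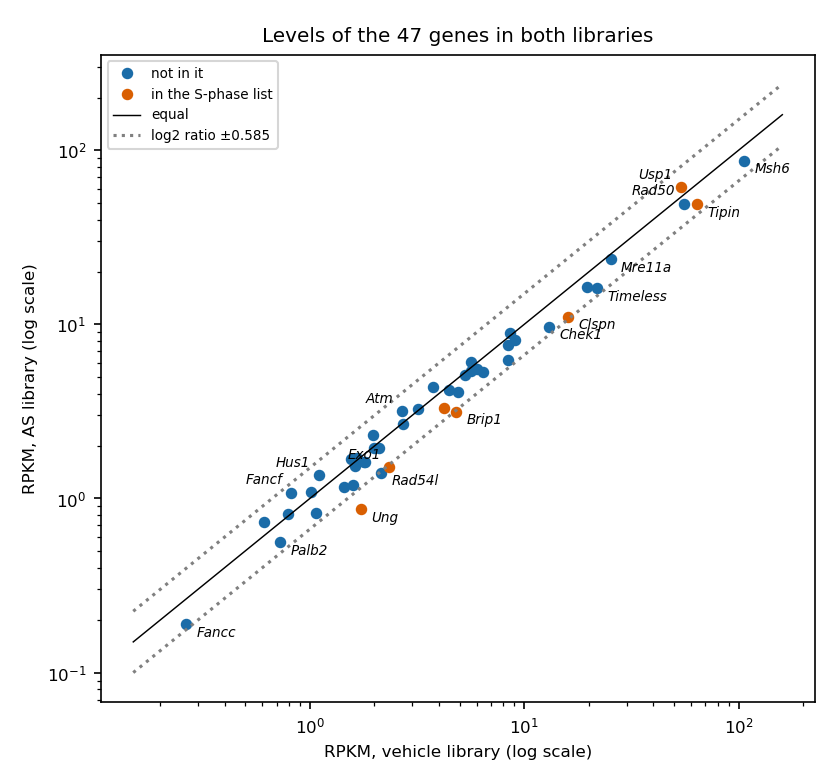
RPKM of the 47 genes in the vehicle library (x axis) and the AS library (y axis), both on log scales, with lines for equal levels and for 1.5-fold in either direction. The points follow the line of equal levels from Fancc to Msh6, and Ung lies clearly below the lower dotted line.

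A published list of 43 genes used to score S phase in single cells holds 7 of the 47 genes: Brip1, Exo1, Blm, Usp1, Clspn, Tipin and Ung. The median log2 fold change of these 7 was -0.53, and 3 of them were lower by at least 1.5-fold, against 2.01% of all genes. Usp1 was the exception, as the 1 gene of the 7 above 0. The other 40 genes had a median of -0.10, with 27 below 0, where 39.1% of all genes lay. Among the 40, only 1, Rad54l, was lower by at least 1.5-fold. Of these 40, 31 (77.5%) lay below the median of all genes, so the small shift was also present outside the list. The 36 other genes of the S-phase list had a median of -0.43, with 35 below 0 and 9 lower by at least 1.5-fold. The summed reads of the 2 parts of the 47 gave the same log2 ratio, -0.20 for the 7 genes and -0.20 for the 40, and Usp1 alone held 10275 of the 21101 reads of the 7 genes with AS.

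**Figure D3:**
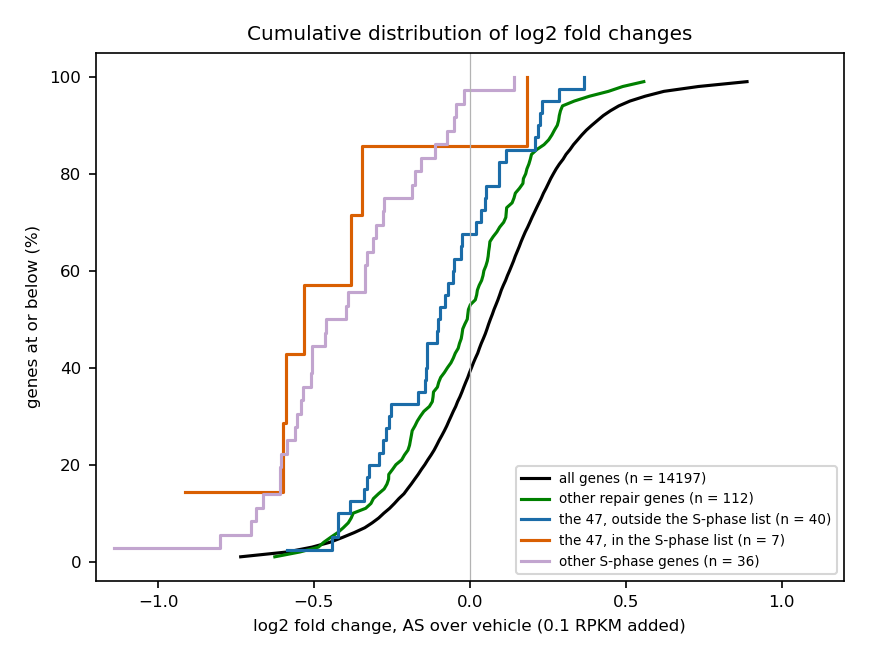
Share of genes (y axis, %) at or below each log2 fold change (x axis) for all genes, for 112 other repair genes, for the 47 genes inside and outside the S-phase list, and for the other S-phase genes. The curve of the 40 genes outside the list runs left of all genes by a small step, and the curve of the 7 genes inside it lies near that of the other S-phase genes except for Usp1.

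Partners in a complex, paralogs and genes with related roles were also set against each other, over 20 pairs. For 10 of the 20 pairs the 95% counting interval of the difference in log2 fold change (reads alone, delta method) left out 0. The pairs were chosen by hand, and no share over other pairs of genes was computed. For single genes of the whole table, the interval lay wholly below 0 for 19.8% and wholly above 0 for 37.6%. These shares set 1 gene against 0 and give no baseline for a difference between 2 genes. Brca1 lay 0.40 below Bard1 (difference -0.40, interval -0.57 to -0.24), so that the RPKM ratio of Brca1 to Bard1 was 2.35 with AS and 3.11 with the vehicle. Rad54l lay below Rad54b, which shares exon bases with Fsbp (difference -0.51, interval -0.70 to -0.32), and Chek1 below Chek2 (-0.37, interval -0.54 to -0.21). Atr lay below Atm (-0.31, interval -0.46 to -0.17) and below Atrip (-0.31, interval -0.49 to -0.14). Exo1 lay below Blm (-0.28, interval -0.46 to -0.10). In the opposite direction, Rad51d lay above Xrcc2 (0.40, interval 0.08 to 0.71), Brca2 above Palb2 (0.29, interval 0.01 to 0.57) and Chek1 above Clspn (0.11, interval 0.0082 to 0.21). For the 10 other pairs the interval covered 0, with Rad51c and Rad51b the farthest apart at -0.40 (-0.82 to 0.03). The difference between Timeless and Tipin was -0.06 (-0.14 to 0.02), that between Fanci and Fancd2 was -0.10 (-0.30 to 0.09), and that between Usp1 and Wdr48 was 0.07 (-0.01 to 0.15). Mre11a lay above Rad50 by 0.07 (0.01 to 0.13), the smallest difference whose interval left out 0. The intervals do not hold the spread between dishes.

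**Figure D4:**
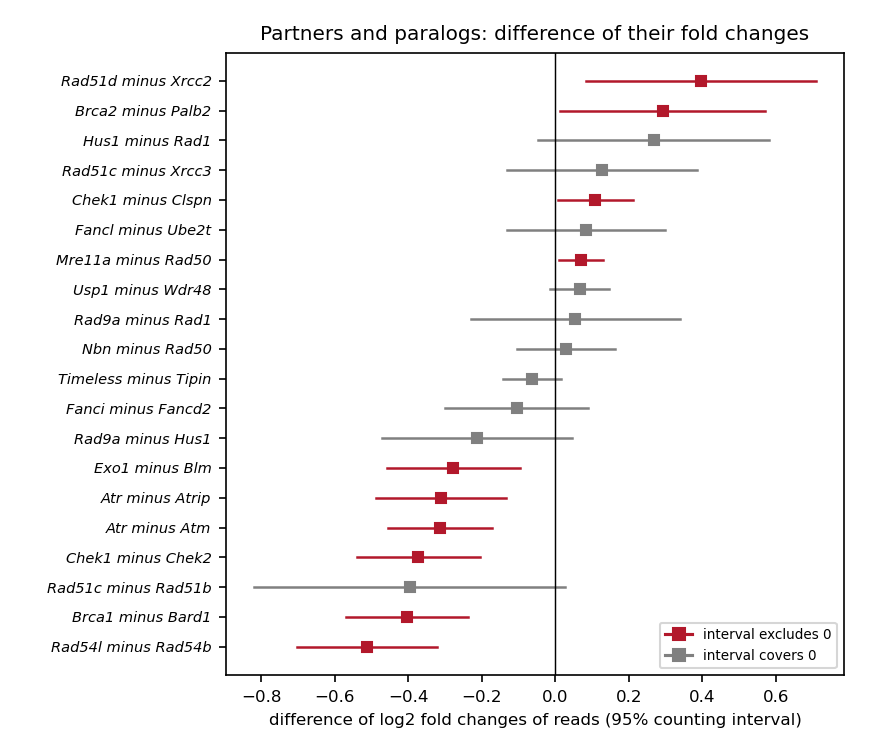
Difference of the log2 fold changes of the reads (first gene minus second, x axis) for 20 pairs of partners, paralogs or genes with related roles. Bars are 95% counting intervals. The interval left out 0 for 10 pairs, with Rad54l minus Rad54b lowest (-0.51) and Rad51d minus Xrcc2 highest (0.40).

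The rest of the repair genes were examined in 8 lists, of which 112 of 115 genes were in the table. The 26 other homologous recombination genes had a median log2 fold change of -0.17, with 17 below 0. Among them Dna2, a nuclease of end resection, was lower by at least 1.5-fold, at 0.837 RPKM after AS against 1.40 after the vehicle (-0.68). The other lists lay closer to the median of all genes. The medians were 0.05 for 15 other Fanconi and crosslink genes, 0.04 for 10 genes of non-homologous end joining and 0.05 for 14 genes of nucleotide excision repair, and these 3 turned below 0 when the scaling brought the median of all genes to 0. They were -0.00038 for 12 genes of break signalling on chromatin, -0.07 for 16 genes of base excision repair and 0.15 for 5 other mismatch repair genes. No gene of these 6 lists passed 1.5-fold in either direction. The 14 checkpoint effectors had a median of -0.08, with 1 gene past 1.5-fold on either side, and the median turned to 0.0020 with a minimum mean of 1 RPKM. Pkmyt1, an inhibitory kinase of CDK1, had 2.88 and 4.52 RPKM (-0.63, interval -0.82 to -0.49). Gadd45a, a stress-induced growth arrest gene, had 73.2 and 44.3 RPKM (0.72, interval 0.67 to 0.78). Over all 112 genes, 2 were lower and 1 was higher by at least 1.5-fold, against 2.01% and 3.56% of all genes. Their median was -0.0081. Of the 112 genes, 66.1% lay below the median of all genes, against 78.7% of the 47. By list this share was highest, at 75%, for break signalling and for base excision repair. It was lowest, at 40%, for other mismatch repair. No test of the difference between the lists was made.

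**Figure D5:**
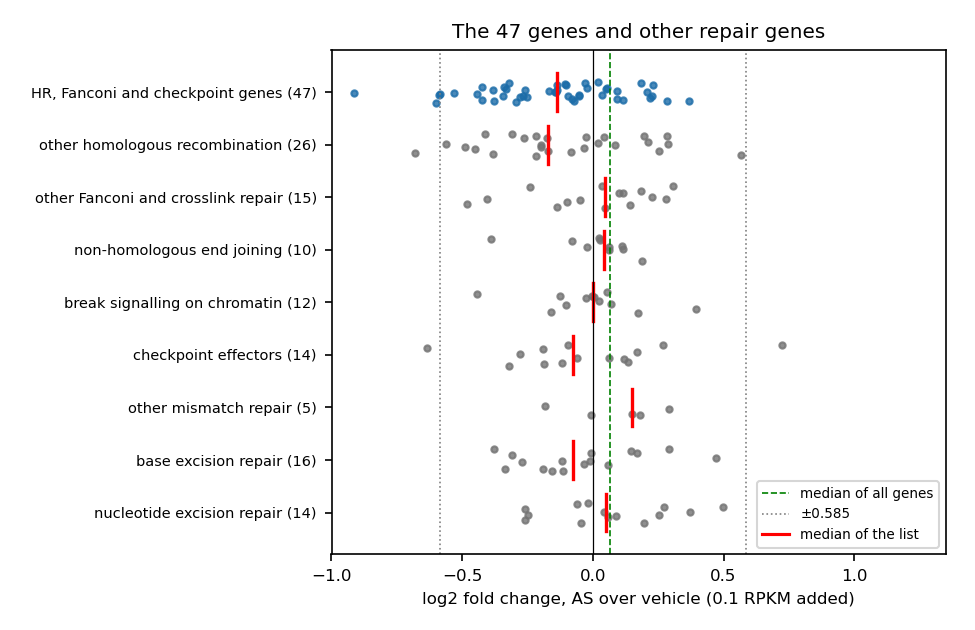
Log2 fold change (x axis, 0.1 RPKM added) of each gene of the 47 and of 8 lists of other repair genes, 1 point per gene, with the median of each list as a red bar. The medians of the 47 genes (-0.14) and of the other homologous recombination genes (-0.17) lie farthest left of the dashed median of all genes. Only the median of the other mismatch repair genes (0.15) lies right of it. Most points lie between the dotted lines at 1.5-fold in either direction.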

How the data were processed

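RNA from the AS and the vehicle dish of 4T1 cells was sequenced as 1 stranded mRNA library each. The submitters' processing notes name fastp 0.23.4, STAR 2.5.3a and featureCounts, and the build GRCh38, which is human although the cells are murine. Of the genes with 1 entry in GENCODE M21 (GRCm38, mouse), 94.2% had the exon length of that annotation in the values, and 46 of the 47 genes did. The table deposited by the authors holds a value per library that is RPKM, a unit read from the values since the header gives none, and the authors' log2 of the mean CPM. The filter on low genes is not given in the sources used here. Its columns of the authors' own comparison (fold change, p-value and FDR) were not used.

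Reads were worked back from the RPKM ratio and the mean log2 CPM (library sizes 44909683 and 50820728). The genes with no whole reads were estimated to the nearest read for library totals and scaling only. The lowest mean was 29.5 reads. Reads without molecular identifiers are not independent molecules. The recovery was tested on simulated data. Alternatives were 0 or 1 RPKM added, scaling by TMM, by median of ratios or by the upper quartile (on recovered reads, plus 0.5), centring, minimum means of 50 reads or 1 RPKM, and removal of trends with GC content, exon length and expression (20 bins, 3 rounds). The thresholds of 1.5-fold and 2-fold follow the paper's methods.

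The 47 genes and all lists were chosen with earlier results of these data known. All 47 are named, and of each related list at most 3 genes per direction past 1.5-fold; Wdr48 and genes that share exons with the 47 are named besides, chosen after their values were seen. Of the listed symbols, 5 in the repair lists were matched under another name, through RefSeq synonyms except for Stra13. Stra13 was assigned to Cenpx by hand because several genes share that synonym. Computations ran in Python 3.11 with scipy 1.17.1.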

Additional observations from a re-analysis of the deposited data

How the results depend on the processing

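No paired analysis was possible because there was 1 library per condition. Over 9 alternatives the median log2 fold change of the 47 genes stayed below 0, between -0.22 and -0.09. So did the medians of the 7 genes in the S-phase list, of the 40 outside it and of all 8 role groups. Most settings could hardly have shown otherwise. Adding 0 or 1 RPKM cannot change the sign of a gene, and the 3 scalings and centring lowered every gene by about the same amount. The minimum of 50 reads removed none of the 47. The median of the 47 was -0.14 with a minimum of 1 RPKM and -0.18 with the trends removed. With 1 RPKM added, 130 of all genes were lower and 189 higher by at least 1.5-fold. The share of the 47 below the median of all genes was 80.5% with a minimum of 1 RPKM, 83.0% with the trends removed and 78.7% otherwise. A shift common to all genes cannot change this share. The number lower by at least 1.5-fold was 0 with 1 RPKM added, and 1 when the nearer bound of the counting interval had to pass. The number lower by more than 2-fold was 1 (Ung) with each of the 3 scalings (TMM, median of ratios, upper quartile) and with the trends removed. The median of the 7 S-phase genes was -0.41 with 1 RPKM added, and -0.60, -0.60, -0.62 and -0.60 with scaling by TMM, by median of ratios or by the upper quartile, and with centring. In the same order, the median of the mismatch, base-excision and post-replication group was -0.28, -0.28, -0.29 and -0.27. That of break signalling was -0.0688, -0.0690 and -0.0802 with the 3 scalings. With upper-quartile scaling, base excision repair was at -0.15 and nucleotide excision repair at -0.0292. The clamp and mediators were at -0.26 with a minimum of 1 RPKM, which removed Rad1. These shifts with scaling follow from its construction, since TMM lowered the median of all genes by 0.07. It turned Fancl, Pms2, Rad1 and Rad51d below 0. Of 444 values of single genes, 53 moved by more than their counting error and 0 of those past 1.5-fold changed sign. Depth limits the genes with few reads, such as Fancc, Fancf and Rad51b.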
